A study of Mus musculus with 18 samples.

Results

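The genes described here are 8 genes of the NF-κB response, taken by name from the 52636 genes of each deposited table. They are Icam1, Tnfaip2, Tnfaip3, Nfkbia, Nfkb1, Nfkb2, Relb and Birc3, all 8 were found, and all 8 passed the filter on low counts. The choice was made with earlier results of these data known, so counts of called genes do not test the list. NF-κB is a family of transcription factors that wait in the cytoplasm bound to IκB proteins. Signals from receptors for tumour necrosis factor, interleukin 1 or bacterial products activate a kinase complex that removes the IκB protein, and the freed factor enters the nucleus and turns on target genes. Several targets are themselves brakes on the pathway, so that a response ends itself. In the mammary gland the pathway is known for its part in alveolar growth downstream of the receptor RANK and in the inflammatory changes of involution.

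The RNA came from cells sorted by flow cytometry from mammary glands of mice aged 6 months. There were 6 groups of 3 biological replicates: the N and ML gates of Esr1 D542G mice, of Esr1 Y541S mice and of Esr1 wild-type (WT) mice. All 18 libraries came from animals given pellets of oestradiol and progesterone (E2/P4) and then giredestrant, an oral antagonist and degrader of oestrogen receptor α, at 30 mg/kg by mouth daily for 4 days, so no untreated state was measured. ML stands for mature luminal cells and N for the second cell type label; the sort markers of either gate were not given in the sources used here. The 2 substitutions lie in the receptor that the drug binds; counts per gene do not show them, so the genotype labels were not checked. The series asks whether cells induced by antagonism of the receptor in mutant glands also occur in WT glands.

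The libraries held between 34797778 and 49507144 counts. Although every sample is labelled as mature luminal in origin, the N libraries were high in genes of basal and myoepithelial cells: the summed level of 13 such genes was 6799 to 40398 CPM (counts scaled to library size) in N and 782 to 10201 CPM in ML. Krt14, a basal keratin gene, was at 2170 to 19469 CPM in N and 50.1 to 3862 CPM in ML, and the luminal keratin gene Krt8 at 30.2 to 740.1 CPM in N and 503 to 1090 CPM in ML. The sum of 8 pan-luminal genes was 2297 to 16949 CPM in N and 15779 to 30123 CPM in ML. WT N replicate 3 stood apart from the other N libraries, with the lowest basal sum (6799 CPM) and the highest pan-luminal sum (16949 CPM). The main results on the genes called between gates or genotypes are therefore also given without it. In bulk RNA, fewer cells of a type and less RNA per cell cannot be told apart.

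The upstream sequences of 3 genes are printed here because the results turn on Icam1, because Nfkbia is the textbook feedback target of the pathway, and because Birc3 held neither searched motif. The windows are the 250 bases before the RefSeq start (GRCm38.p6), cut to 234 bases for Birc3, where the last bases lie inside the GENCODE gene. Capitals mark matches, on either strand, to the NF-κB consensus of 10 positions or to the shorter motif GGNNNTTCC. The motifs can overlap each other.
Icam1, chr9:21015690-21015939, plus strand: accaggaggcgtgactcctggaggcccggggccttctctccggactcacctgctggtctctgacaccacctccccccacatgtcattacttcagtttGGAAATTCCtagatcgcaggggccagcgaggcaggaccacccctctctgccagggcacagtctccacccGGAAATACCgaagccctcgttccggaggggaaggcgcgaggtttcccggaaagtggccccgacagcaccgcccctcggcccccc
Nfkbia, chr12:55492648-55492897, minus strand: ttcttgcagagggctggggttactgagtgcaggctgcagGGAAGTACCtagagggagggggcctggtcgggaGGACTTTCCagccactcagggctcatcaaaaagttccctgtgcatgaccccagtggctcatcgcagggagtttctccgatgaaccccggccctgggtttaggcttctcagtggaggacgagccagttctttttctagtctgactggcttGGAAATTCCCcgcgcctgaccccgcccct
Birc3, chr9:7873187-7873420, minus strand: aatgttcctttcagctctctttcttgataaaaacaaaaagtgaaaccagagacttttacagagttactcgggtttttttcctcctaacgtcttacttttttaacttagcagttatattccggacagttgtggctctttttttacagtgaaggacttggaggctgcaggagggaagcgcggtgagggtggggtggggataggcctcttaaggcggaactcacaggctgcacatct

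RefSeq windows were matched for 6 of the 8 genes; Nfkb1 and Relb are named only. For Tnfaip2, Tnfaip3 and Nfkb2 most or all of the window lies inside a longer GENCODE transcript, so only 1 short stretch of each is printed. Each of these windows also held a match outside the printed stretch. The Tnfaip2 stretch holds GGNNNTTCC only. Its consensus match, 24 to 15 bases before the start on the minus strand, is not printed.
Tnfaip2, chr12:111442564-111442592, plus strand: gtccgccagcGGATTTTCCgcggttgcgg
Tnfaip3, chr10:19015411-19015438, minus strand: gactGGAATTTCCatcGGAAATCCCCct
Nfkb2, chr19:46304689-46304717, plus strand: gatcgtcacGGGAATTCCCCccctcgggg
The consensus occurred in the windows of 4 of the 6 genes (Tnfaip2, Tnfaip3, Nfkbia and Nfkb2) and GGNNNTTCC in those of 5, all but Birc3. Of 32851 windows of the same length over the genome, 7.25% held the consensus and 15.7% held GGNNNTTCC. In the Icam1 window the matches lay 153 to 145 and 84 to 76 bases before the start. A match describes the letters only.

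Icam1 encodes an adhesion molecule that leukocyte integrins bind, and is a widely used readout of NF-κB activity in endothelium and epithelium. It lies on chromosome 9 at 21015985-21028817 (plus strand, GRCm38). Of its exon bases, 511 (11.7%) also lie in the antisense gene Gm47079, and whether counting used strand is not given in the sources used here, so a part of its count cannot be assigned. Its deposited width is 12833 bases, the whole span of the gene, against 4360 exon bases. Whether introns were counted is not given, so shares of exon bases, here and below, may not measure shared counts. Icam1 stood at 2248, 1783 and 1873 CPM in the 3 D542G N libraries, against 97.4, 118 and 117 CPM in D542G ML. In Y541S it was 892, 525 and 949 CPM in N, against 112, 108 and 192 CPM in ML. In WT it was 540.7, 528 and 307 CPM in N, against 87.3, 113 and 154 CPM in ML. Each N library was above each ML library, including WT N replicate 3, the lowest of the 9.

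Over the 3 genotypes Icam1 was 7.34-fold higher in N than in ML (log2 fold change 2.88 ± 0.19 SE, adjusted p = 5.05e-07, edgeR's quasi-likelihood test with Benjamini-Hochberg adjustment over 18298 genes). In that comparison 27.4% of all genes were called at an adjusted p below 0.05, and 3 of the 8 NF-κB response genes were. Without WT N replicate 3 the log2 fold change of Icam1 was 2.95 (adjusted p = 1.87e-07). Within genotypes the log2 fold change was 4.15 ± 0.34 in D542G (adjusted p = 2.89e-05), 2.52 ± 0.32 in Y541S (adjusted p = 3.85e-04) and 1.96 ± 0.31 in WT (adjusted p = 0.00616; 2.18 without WT N replicate 3, adjusted p = 6.64e-04). The background shares of called genes were 9.2% in D542G, 6.95% in Y541S and 3.53% in WT. Icam1 was called in all 24 alternative analyses of each of these 4 comparisons.

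Markers of other cell types that can carry Icam1 were read beside it. The summed level of 12 endothelial genes was 212 to 321 CPM in D542G N, 467 to 1101 CPM in Y541S N and 237 to 356 CPM in WT N, against 157 to 428 CPM over the ML libraries. The sum in the D542G N libraries lay inside the ML range. That sum includes Vwf, which stood at 11.9 to 109 CPM in N and 58.7 to 149 CPM in ML. Over the genotypes 7 of the 12 endothelial genes were higher and 1 was lower in N; Pecam1 had 26.6 to 218 CPM, Cdh5 4.71 to 24.3 CPM and Kdr 9.91 to 56.8 CPM in N, against 5.09 to 60.1, 1.06 to 9.07 and 0.858 to 20.3 CPM in ML. The sum of 10 fibroblast genes, of which 2 were higher and 1 lower, ranked the genotypes in the N gate as Icam1 did. It was 402 to 506 CPM in D542G N, 300.2 to 402 CPM in Y541S N and 88.5 to 188 CPM in WT N. In ML it was 53.0 to 428 CPM. By library, the sum ranked as Icam1 did in D542G N only. WT N replicate 3 had the lowest Icam1 of WT N (307 CPM) and the highest sum (188 CPM). Y541S N replicate 3 had the highest Icam1 of Y541S N (949 CPM) and the lowest sum (300.2 CPM). Dcn alone had 20.4 to 371 CPM in N and 23.6 to 360 CPM in ML. The sum of 8 pericyte genes, 2 higher and 1 lower, was 111 to 438 CPM in N and 66.3 to 129 CPM in ML, highest in Y541S N. The part of these cells in the Icam1 result was not tested.

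The basal list had 12 of 13 genes higher and 1 lower in N. Its sum spanned 15159 to 16969 CPM in the D542G N libraries and 25371 to 39152 CPM in those of Y541S N. In WT N it was 32314, 40398 and 6799 CPM. In the ML gate, WT replicates 1 and 2 had basal sums of 10201 and 7167 CPM, and their Icam1 levels were 87.3 and 113 CPM. The part of basal cells in the Icam1 result was not tested. Of the lymphocyte lists, the T and natural killer sum was 7.20 to 40.4 CPM in N and 2.79 to 10.1 CPM in ML (1 of 9 tested genes higher), and the B and plasma cell sum was 282 to 842 CPM in N and 360.5 to 2043 CPM in ML (2 of 6 tested genes lower). The mast cell and neutrophil sum was 2.52 to 74.7 CPM in N and 0.0713 to 20.7 CPM in ML, with 3 of 6 tested genes higher. Of the luminal lists 7 of 8 pan-luminal and 6 of 11 hormone-sensing genes were lower in N.

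**Figure D1:**
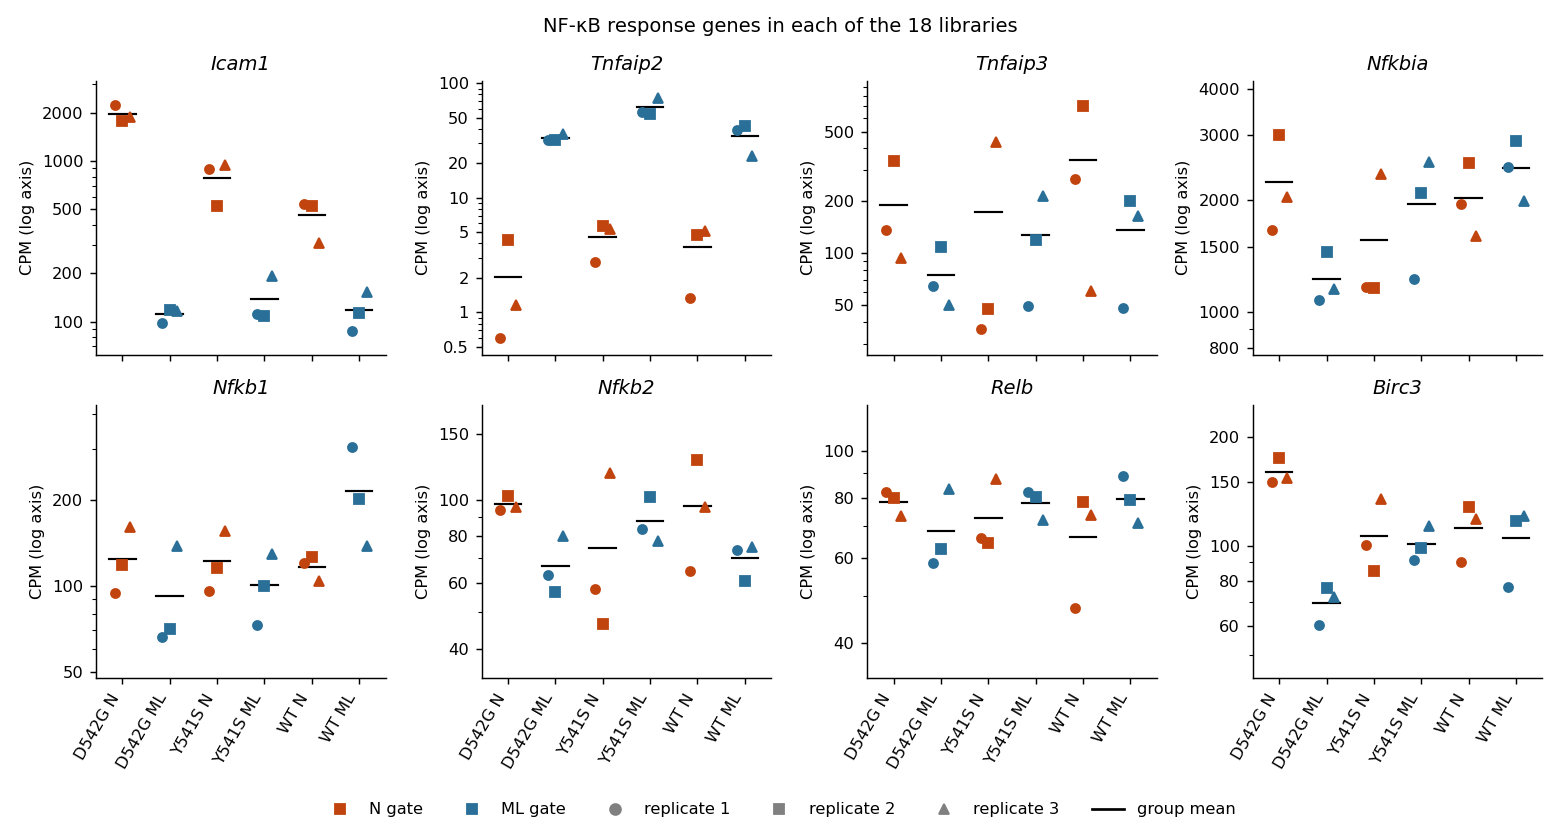
Level of each of the 8 genes in all 18 libraries, in CPM on a log axis, by genotype and gate; symbols mark the replicate and the black line the group mean. Icam1 separates N (307 to 2248 CPM) from ML (87.3 to 192 CPM) upward and Tnfaip2 separates them downward, while the gates overlap for the other 6 genes taken over all genotypes.

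Tnfaip2, a gene first found as induced by tumour necrosis factor in endothelial cells and linked to membrane protrusions, went the other way. It lies on chromosome 12 at 111442469-111455018 (plus strand), and 314 of its exon bases (6.3%) also lie in the antisense gene Gm40578. Its level was 0.600, 4.32 and 1.15 CPM in D542G N, against 32.1, 31.9 and 36.4 CPM in D542G ML. Y541S libraries had 2.76, 5.68 and 5.33 CPM in N, against 56.3, 54.4 and 74.9 CPM in ML. WT libraries had 1.33, 4.70 and 5.11 CPM in N, against 39.4, 42.4 and 23.1 CPM in ML. All 9 N libraries were below all 9 ML libraries, with no overlap in any genotype.

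Over the genotypes Tnfaip2 fell by 3.68 ± 0.37 on the log2 scale in N (adjusted p = 1.24e-05, edgeR), 12.8-fold lower than in ML, and without WT N replicate 3 the value was -3.78 (adjusted p = 1.49e-05). The log2 fold change was -4.04 ± 0.66 in D542G (adjusted p = 0.00197), -3.75 ± 0.65 in Y541S (adjusted p = 0.00329) and -3.23 ± 0.64 in WT (adjusted p = 0.0162). The WT call ended without WT N replicate 1 (-2.83, adjusted p = 0.0585) or without WT N replicate 2 (-3.43, adjusted p = 0.0538), and stood without WT N replicate 3 (-3.53, adjusted p = 0.00722). Most genes of the pan-luminal and hormone-sensing lists were lower in N, as given above, and 27.4% of all genes were called. Luminal progenitor markers were lower as well, 6 of 8, so this direction was not particular to them. Of that list Elf5, which drives alveolar fate, was 0.586 to 67.1 CPM in N against 58.6 to 249.8 CPM in ML. The summed level of the progenitor list was 93.9 to 18903 CPM in N and 2057 to 17186 CPM in ML. The highest sum in each gate was that of Y541S replicate 2 and came mainly from the milk protein gene Csn2, at up to 17504 CPM in N and 9315 CPM in ML. Of 12 tested macrophage and dendritic cell markers 1 was higher and 1, Cd14, was lower in N, and Itgam was counted as 0 in every library. The summed level of that list was 120.4 to 609 CPM in N and 639 to 2347 CPM in ML, with Cd14 alone at 55.7 to 536 CPM in N and 573 to 1939 CPM in ML. Cd14 stands on the luminal progenitor list as well, and Adgre1, which defines tissue macrophages, was at 0 to 10.9 CPM in N and 0 to 3.40 CPM in ML. The part of these cells in the Tnfaip2 result was not tested.

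Across the 18 libraries Icam1 and Tnfaip2 ran opposite to each other, with a Pearson correlation of -0.91 on the log2(CPM + 1) scale. Among 9661 well expressed named genes, those most like Icam1 were Trp73 (r = 0.96), Axl (r = 0.96), Pxdc1 (r = 0.96), Itgb4 (r = 0.96) and Vsnl1 (r = 0.96). Trp73 is a p53-family transcription factor, Axl a receptor tyrosine kinase, and Itgb4 the integrin subunit of hemidesmosomes. Those most like Tnfaip2 were Spns2 (r = 0.96), Ccn5 (r = 0.96), Rftn1 (r = 0.96), Ntn1 (r = 0.96) and Rasgef1c (r = 0.96), of which Spns2 exports sphingosine 1-phosphate and Ntn1 encodes netrin-1. Birc3 had r = 0.73 with Icam1, while Tnfaip3 had 0.32, Nfkb2 0.33 and Nfkbia 0.18. These values describe libraries that share the split between the gates.

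Birc3 encodes a ubiquitin ligase of the inhibitor of apoptosis family that acts at tumour necrosis factor receptors and restrains the alternative NF-κB pathway. It lies on chromosome 9 at 7848699-7873186 (minus strand) beside its paralog Birc2, and how reads shared by the 2 genes were counted is not given in the sources used here. Birc3 stood at 149.8, 175 and 154 CPM in D542G N, against 60.4, 76.5 and 72.4 CPM in D542G ML. In Y541S it had 101, 85.1 and 135 CPM in N, against 91.4, 98.9 and 113 CPM in ML. In WT it had 90.3, 128 and 118 CPM in N, against 77.2, 117 and 121 CPM in ML. The gates were apart in D542G and overlapped in the other genotypes.

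Over the genotypes Birc3 was 1.37-fold higher in N (log2 fold change 0.45 ± 0.12, adjusted p = 0.0127, edgeR), with 7 of 9 N libraries above the ML median. Without WT N replicate 3 the log2 value was 0.44 (adjusted p = 0.0162). In D542G it was 1.19 ± 0.21 (adjusted p = 0.00344). In Y541S it was 0.08 ± 0.21, with a 95% interval of -0.37 to 0.52, and in WT 0.09 ± 0.21, with an interval of -0.35 to 0.54, and neither was called. The gate change in D542G minus that in WT was 1.10 ± 0.30 (adjusted p = 0.202), so a difference between these genotypes was not called by edgeR; DESeq2 gave 1.10 (adjusted p = 0.0244) and limma-voom with sample quality weights 1.36 (adjusted p = 0.00508).

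**Figure D2:**
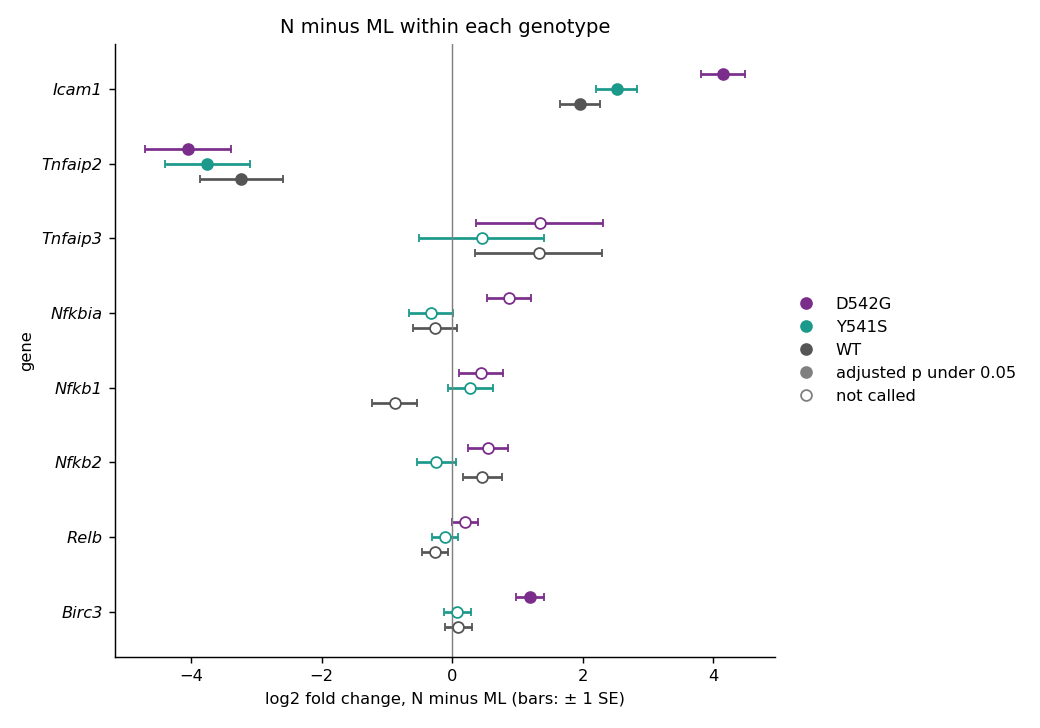
Log2 fold change of N minus ML for each gene within D542G, Y541S and WT, from edgeR's fit; bars show 1 SE and filled points have an adjusted p below 0.05. Icam1 (4.15, 2.52 and 1.96) and Tnfaip2 (-4.04, -3.75 and -3.23) are filled in each genotype, and Birc3 in D542G (1.19).

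Nfkbia and Tnfaip3 encode the 2 best known brakes of the pathway, IκBα, which holds the factor in the cytoplasm, and A20, which edits ubiquitin chains upstream of the kinase complex. Nfkbia lies on chromosome 12 at 55489410-55492647 and Tnfaip3 on chromosome 10 at 19000910-19015657, both on the minus strand. Nfkbia had 1659.6, 2995 and 2046 CPM in D542G N, against 1074, 1454 and 1152 CPM in D542G ML, with no overlap. Y541S had 1165, 1158 and 2356 CPM in N, against 1227, 2091 and 2531 CPM in ML. WT had 1956, 2525 and 1599.8 CPM in N, against 2454, 2886 and 1985 CPM in ML. Outside D542G the gates overlapped.

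Over the genotypes the log2 fold change of Nfkbia was 0.09 ± 0.19 (adjusted p = 0.775, edgeR), with a 95% interval of -0.32 to 0.51. In D542G it was 0.86 ± 0.34 (adjusted p = 0.124). The N and ML libraries of one number deviated together, and with that number as a block the value was 0.83 (adjusted p = 0.0318). For that gate change limma-voom called Nfkbia as well (adjusted p = 0.0156). By edgeR without a block the log2 fold change was -0.32 ± 0.34 in Y541S (adjusted p = 0.634) and -0.27 ± 0.34 in WT (adjusted p = 0.686).

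Tnfaip3 was the most variable of the 8 among the N libraries, with a highest level 19.2 times the lowest. Its levels were 136, 338 and 93.8 CPM in D542G N, against 64.6, 109 and 50.5 CPM in D542G ML. In Y541S they were 36.4, 47.4 and 435 CPM in N, against 49.3, 119 and 212 CPM in ML. In WT they were 266, 699 and 60.4 CPM in N, against 48.2, 199 and 163 CPM in ML. In each N group 1 library was above the other two together: replicate 2 in D542G and WT, and replicate 3 in Y541S. The log2 fold change over the genotypes was 1.04 ± 0.56 (adjusted p = 0.184, edgeR), with a 95% interval of -0.15 to 2.23; without WT N replicate 3 it was 1.204 (adjusted p = 0.0945).

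The library highest in Tnfaip3 was also the highest in Nfkbia in 6 of 6 groups, and the highest in Birc3 in 5 of 6. For Icam1 this held in 3 of 6 groups and for Tnfaip2 in 3 of 6. Of the 18298 tested genes, 76 (0.415%) shared the highest library with Tnfaip3 in all 6 groups. Among them were the chemokine genes Cxcl1 and Cxcl2 and the prostaglandin synthase gene Ptgs2, all reported NF-κB targets. The epidermal differentiation sum was high in several of the same libraries: 820 CPM in D542G N replicate 2, 12392 CPM in Y541S N replicate 3 and 10874 CPM in WT N replicate 2, each the highest of its group. The same held in D542G ML (replicate 2, 126 CPM) and Y541S ML (replicate 3, 1949 CPM) but not in WT ML, where replicate 1 had 722 CPM and replicate 2 had 336 CPM. Of 8 tested epidermal genes 1 was higher in N over the genotypes. The part of these cells in the levels of Tnfaip3 was not tested.

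**Figure D3:**
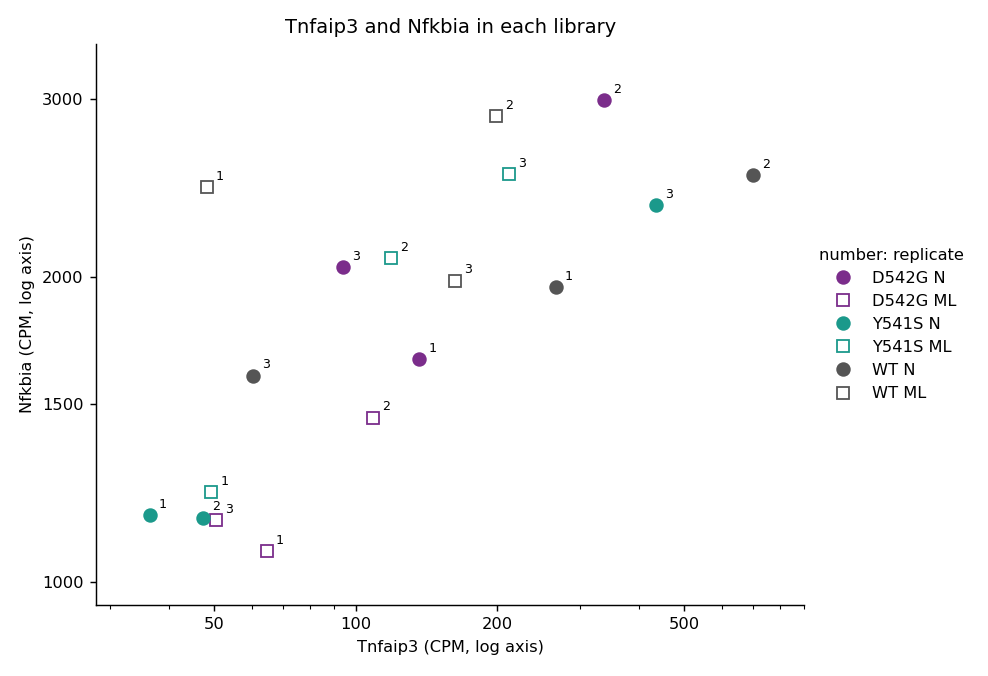
Tnfaip3 (horizontal axis) and Nfkbia (vertical axis) in each of the 18 libraries, both in CPM on log axes; filled circles are N, open squares ML, colours the genotypes and numbers the replicates. Within each of the 6 groups the library farthest right, such as WT N replicate 2 at 699 CPM of Tnfaip3, is also the highest in its group.

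The subunit genes Nfkb1 (p105/p50), Nfkb2 (p100/p52) and Relb, the usual partner of p52, were not called by edgeR between the gates, over the genotypes or within any of them. Nfkb1 lies on chromosome 3 at 135584655-135691547 (minus strand), Nfkb2 on chromosome 19 at 46304320-46312385 (plus strand) and Relb on chromosome 7 at 19606217-19629438 (minus strand). Of the exon bases of Nfkb2, 830 (18.1%) also lie in genes on the opposite strand. Over the genotypes the log2 fold change was -0.06 ± 0.20 for Nfkb1 (adjusted p = 0.876), 0.26 ± 0.17 for Nfkb2 (adjusted p = 0.298) and -0.06 ± 0.11 for Relb (adjusted p = 0.762, all edgeR). The 95% intervals were -0.47 to 0.36 for Nfkb1, -0.12 to 0.63 for Nfkb2 and -0.30 to 0.19 for Relb.

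Relb spanned 47.4 to 87.3 CPM in N and 58.6 to 88.8 CPM in ML. Nfkb2 spanned 46.7 to 128 CPM in N and 56.8 to 102 CPM in ML; in D542G alone its gates did not overlap (93.7, 103 and 95.9 CPM in N, against 62.9, 56.8 and 79.9 CPM in ML; log2 0.55 ± 0.30, adjusted p = 0.279 by edgeR). For that gate change in D542G, limma-voom called both Nfkb2 (0.69, adjusted p = 0.0261) and Nfkb1 (0.69, adjusted p = 0.0340). Nfkb1 had 94.3, 119 and 160.4 CPM in D542G N, against 66.5, 70.9 and 138 CPM in D542G ML. It had 96.4, 116 and 156 CPM in Y541S N, against 73.2, 100.2 and 129.7 CPM in Y541S ML. In WT its N libraries, at 120.5, 126 and 104 CPM, were below the ML libraries, at 307, 201 and 138 CPM. That WT difference was -0.88 ± 0.34 (adjusted p = 0.161) and was not called.

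The second set of comparisons asks whether the N cells of mutant and WT glands differ. In the N gate Icam1 was 4.29-fold higher in D542G than in WT (log2 2.10 ± 0.31, adjusted p = 0.00498, edgeR), the 3 D542G libraries lying above the 3 WT libraries. The call held in all 24 alternatives, among them the one without WT N replicate 3 (1.88, adjusted p = 0.00585). It was the 1 of the 8 genes called there, against 2.43% of all genes. Y541S N minus WT N was 0.78 ± 0.30 (adjusted p = 0.248), and the libraries overlapped. For Y541S against WT in N edgeR called 0 of the 8 genes and 1.14% of all genes. An unadjusted p below 0.05 was found for 1 of the 8, Icam1, and for 2616 of all 18298 genes. DESeq2 and limma-voom called 0 of the 8, and 1139 and 1931 genes in all.

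D542G N exceeded Y541S N in Icam1 by 1.32 ± 0.31 on the log2 scale (adjusted p = 0.0479), 2.49-fold, where 1.43% of all genes and 1 of the 8 were called. That call was close to the threshold: it stood when WT ML replicate 1 or 3, Y541S ML replicate 2 or 3 or WT N replicate 3 was left out, and ended without any one of the other 13 libraries (adjusted p 0.0524 to 0.204). The order of the group means of Icam1 was D542G N (1968 ± 247 CPM, SD, n = 3), Y541S N (789 ± 230.5 CPM), WT N (459 ± 131 CPM), Y541S ML (138 ± 47.3 CPM), WT ML (118 ± 33.6 CPM) and D542G ML (111 ± 11.6 CPM). Y541S N and WT N were not told apart by the test, nor was either mutant told apart from WT in ML.

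The gate change of Icam1 in D542G minus that in WT was 2.19 ± 0.43 on the log2 scale (adjusted p = 0.081), which edgeR did not call. DESeq2 called it (2.19, adjusted p = 3.65e-04), as did limma-voom (1.97, adjusted p = 0.00287) and edgeR without WT N replicate 3 (1.97, adjusted p = 0.0488). That was the 1 call among 18 edgeR runs with 1 library left out. The other 17 gave adjusted p-values of 0.0545 to 0.268. In that contrast edgeR called 0 of the 8 genes and 0.109% of all genes. At an unadjusted p below 0.05 there were 4 of the 8, Icam1, Nfkbia, Nfkb1 and Birc3, and 1954 of all 18298 genes. DESeq2 called 2 of the 8 and 428 genes in all, and limma-voom 3 of the 8 and 1254 genes in all. For the gate change in Y541S minus that in WT edgeR called 0 of the 8 and 0% of all genes. At an unadjusted p below 0.05 there were 1 of the 8, Nfkb1, and 1538 of all genes. DESeq2 and limma-voom called 0 of the 8 there, and 189 and 334 genes in all. There the Icam1 value was 0.56 ± 0.43, with a 95% interval of -0.35 to 1.47.

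Birc3 was also above the other genotypes in D542G N, with no overlap, by 0.51 ± 0.21 on the log2 scale against WT N (adjusted p = 0.213) and 0.58 ± 0.21 against Y541S N (adjusted p = 0.211). Neither was called by edgeR, while limma-voom called both (0.65, adjusted p = 0.0114, and 0.66, adjusted p = 0.0453). Tnfaip2 differed by -0.87 ± 0.60 between D542G N and WT N (adjusted p = 0.466) and by 0.31 ± 0.59 between Y541S N and WT N (adjusted p = 0.868). Tnfaip3 in Y541S N minus WT N was -0.98 ± 0.97 (adjusted p = 0.707). That value ranged from -2.99 without Y541S N replicate 3 to 0.07 without WT N replicate 2. With WT N replicate 3 and Y541S N replicate 3 both left out it was -3.53 (adjusted p = 0.0224, edgeR). This pair was chosen after seeing the data. It holds the lowest Tnfaip3 level of WT N (60.4 CPM) and the highest of Y541S N (435 CPM), so that p-value cannot test the difference.

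In the ML gate edgeR called 0 of the 8 genes and 0% of all genes for either mutant against WT. For D542G against WT, 3 of the 8 and 1129 of all 18298 genes had an unadjusted p below 0.05. DESeq2 called 0 of the 8 and 112 genes in all. limma-voom called 1 of the 8, Nfkb1, and 93 genes in all. For Y541S against WT, 1 of the 8, Nfkb1, and 1010 of all genes had an unadjusted p below 0.05. Neither DESeq2 nor limma-voom called any of the 8, and they called 56 and 3 genes in all. Nfkb1 was -1.23 ± 0.34 on the log2 scale in D542G ML against WT ML (adjusted p = 0.748) and -1.09 ± 0.34 in Y541S ML against WT ML (adjusted p = 0.865). In D542G ML against WT ML, Nfkbia was -0.99 ± 0.34 and Birc3 -0.59 ± 0.21 (both adjusted p = 0.808). WT ML replicates 1 and 2, the 2 highest in Nfkb1 (307 and 201 CPM), were also the 2 ML libraries with the highest basal sums (10201 and 7167 CPM). The N libraries, with basal sums of 6799 to 40398 CPM, had Nfkb1 at 94.3 to 160.4 CPM. The part of basal cells in the Nfkb1 levels was not tested.

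**Figure D4:**
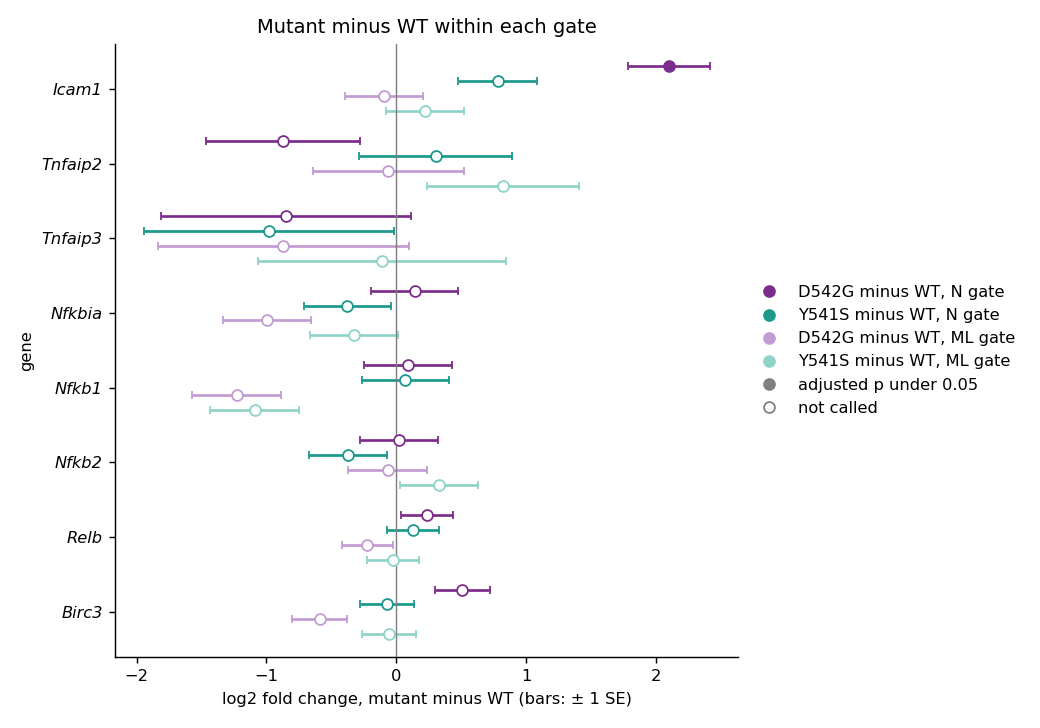
Log2 fold change of D542G minus WT and of Y541S minus WT for the 8 genes, shown separately for N and ML cells, from edgeR's fit; bars show 1 SE and filled points have an adjusted p below 0.05. Icam1 in D542G N (2.10) is the filled point.

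Other genes of the pathway were taken from 6 lists that hold 122 genes, of which 110 could be tested. Between N and ML over the genotypes 22 were higher and 19 lower (37.3% called, against 27.4% of all genes), with a median log2 fold change of 0.05 against -0.03 over all genes. Of the listed genes 8 were counted as 0 in every library, which, for a gene that lies inside another gene, says nothing of its expression.

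Among 39 other reported targets 13 were higher and 10 lower in N. Ptgs2, which encodes the inducible prostaglandin synthase, had 20.4 to 308 CPM in N and 2.19 to 16.6 CPM in ML (log2 3.38 ± 0.48). The monocyte chemokine gene Ccl7 had 1.62 to 49.9 CPM in N and 0.57 to 4.12 CPM in ML (2.57 ± 0.43). Targets with small p-values also fell: Lcn2, an iron-scavenging lipocalin, had 34.8 to 632 CPM in N and 604 to 2955 CPM in ML (-3.25 ± 0.38), and Sod2, the mitochondrial superoxide dismutase, 70.2 to 154 CPM in N and 149.9 to 203 CPM in ML (-0.74 ± 0.10).

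Of 30 kinases, adaptors and ubiquitin editors 5 were higher and 2 lower. The adaptor gene Traf5 rose by 2.41 ± 0.36 (8.98 to 77.8 CPM in N, 2.54 to 8.31 CPM in ML), and Ripk1, the kinase of the tumour necrosis factor receptor complex, rose by 1.22 ± 0.20 (49.7 to 185 CPM in N, 40.6 to 56.6 CPM in ML). The kinase gene Tbk1 rose by 0.45 ± 0.12, and Irak2, of the interleukin 1 pathway, fell by 1.13 ± 0.24. Of 19 receptors 2 were higher and 5 lower, with Tnfrsf12a, the receptor for TWEAK, up by 1.30 ± 0.21 (238 to 695 CPM in N, 159 to 376 CPM in ML). Tnfrsf1b (-1.65 ± 0.33), Tnfrsf21 (-1.43 ± 0.33) and Tlr5, the flagellin receptor (-2.19 ± 0.53), fell.

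Of 10 ligands 2 were higher and 1 lower. Il33, an alarmin cytokine, had 129 to 6719 CPM in N and 0.288 to 336 CPM in ML (log2 3.99 ± 0.62), and Eda rose by 1.15 ± 0.34. Tnf itself was at 1.28 to 18.0 CPM in N and 12.2 to 64.9 CPM in ML, and fell by 2.08 ± 0.47. Tnfsf11, which encodes RANK ligand, was low throughout, at 0 to 4.22 CPM in N and 0 to 7.44 CPM in ML. Its log2 fold change was -2.23 ± 1.29 (adjusted p = 0.217, edgeR). For its receptor gene Tnfrsf11a the value was -0.07 ± 0.26 (adjusted p = 0.879, edgeR). Of 7 further subunits and IκB-family genes 1, Nfkbie, was lower (-0.78 ± 0.20) and 0 were higher by edgeR. Of these 7, 3 had an unadjusted p below 0.05, as did 7184 of all 18298 genes. DESeq2 and limma-voom each called 2 of the 7 higher. Rela, the main activating subunit, was 0.42 ± 0.17 (adjusted p = 0.0808) and Rel 0.88 ± 0.32 (adjusted p = 0.0534); with the replicate number as a block Rel was 0.79 (adjusted p = 0.0173). Of 5 tested genes of the Icam family and its integrin partners edgeR called 0, 1 having an unadjusted p below 0.05, DESeq2 called 1 and limma-voom 3. For N against ML over the genotypes DESeq2 called 6182 genes in all and limma-voom 7690.

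Within D542G 10 of the 110 were higher in N and 4 lower (12.7%, against 9.2% of all genes). Rela was among the higher ones, at 589.9, 577 and 582 CPM in N against 287, 271 and 271 CPM in ML (log2 1.08 ± 0.30, adjusted p = 0.0369, edgeR). The metalloreductase gene Steap4 rose by 2.65 ± 0.34, Il1r1, the interleukin 1 receptor, by 1.47 ± 0.32 and Tnfrsf12a by 1.83 ± 0.37. Within WT 4 were higher and 4 lower (7.27%, against 3.53% of all genes), and within Y541S 6 were higher and 6 lower (10.9%, against 6.95% of all genes); Traf5 and Ptgs2 rose in both genotypes. Between D542G and WT in the N gate 3 of the 110 were higher (2.73%, against 2.43% of all genes called), Il33 (4.85 ± 1.12, adjusted p = 0.0379), Steap4 (2.15 ± 0.33, adjusted p = 0.00618) and the membrane-bound chemokine Cx3cl1 (1.62 ± 0.23, adjusted p = 0.00353). Il33 stood at 6719, 6326 and 6151 CPM in D542G N, against 129, 212 and 325 CPM in WT N. Cx3cl1 was also higher in Y541S N than in WT N (1.07 ± 0.23, adjusted p = 0.0376), as was the receptor gene Tlr2 (2.31 ± 0.41, adjusted p = 0.016); these were 2 of the 110 (1.82%, against 1.14% of all genes). Between D542G and Y541S in the N gate 4 of the 110 were called (3.64%, against 1.43% of all genes): Steap4 (1.80 ± 0.33) and Il1r1 (1.75 ± 0.32) were higher, and the adaptor gene Traf1 (-2.35 ± 0.47) and the growth factor gene Csf1 (-1.91 ± 0.40) lower, in D542G. The gate change of Cx3cl1 in D542G minus that in WT was 1.87 ± 0.32 (adjusted p = 0.0346), the 1 of the 110 called there (0.909%, against 0.109% of all genes).

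**Figure D5:**
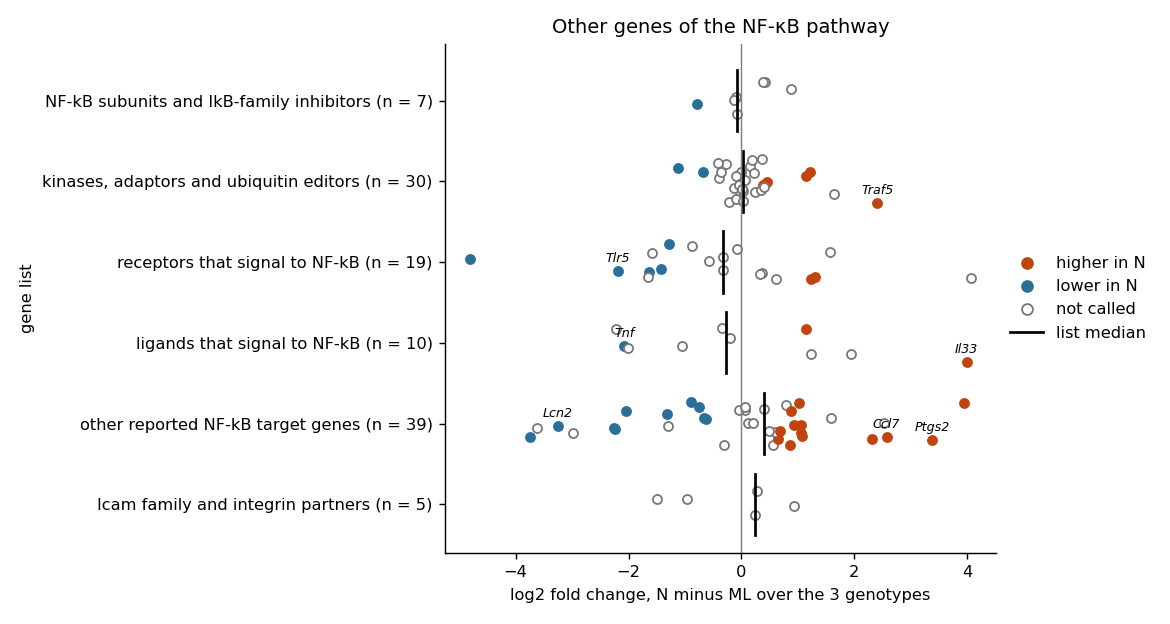
Log2 fold change of N minus ML over the 3 genotypes for 110 other genes of the NF-κB pathway in 6 lists; each point is a gene, coloured where the adjusted p was below 0.05, and black bars are list medians. Called genes lie on both sides of 0, from Il33 (3.99) and Ptgs2 (3.38) to Lcn2 (-3.25).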

How the data were processed

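RNA of sorted cells was amplified and made into Nextera XT libraries, per the labels' protocols. The authors deposited raw counts per gene and RPKM values for 52636 genes in each of 18 libraries; the RPKM values were not used here. The genome build was GRCm38, per the submitters' processing notes, with aligner, counter, annotation and strand setting not given in the sources used here. Gene identifiers were read against GENCODE M21, which held 99.72% of them.

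Counts were tested with edgeR 4.0.16 (R 4.3.3): TMM scaling, filterByExpr with a minimum count of 10 and minimum total of 15, and a quasi-likelihood fit of all 6 groups without a block, with Benjamini-Hochberg adjustment over the 18298 genes kept and a threshold of 0.05. CPM are counts over TMM-scaled totals, and SEs follow from log2 fold change and F. Alternatives used size factors, no filter, DESeq2 1.42.0, limma 3.58.1 voom with sample quality weights, the replicate number as a block, and each library left out. The quality weights ran from 0.18 (WT N replicate 3) to 2.75 (WT ML replicate 2), so limma-voom results rest unevenly on the replicates. WT ML replicates 1 and 3 had weights of 0.36 and 0.64. N and ML libraries of one genotype and number deviated together in 9 of 9 pairs (correlation of deviations 0.18 to 0.51), a pairing read from the data; between genotypes 4 of 18 pairs passed 0.1, so they share only a number.

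The members and lists were chosen with earlier results of these data known. Of each pathway list the text names up to 4 called genes with the smallest p over the genotypes and up to 2 in another comparison, plus Rela, Rel, Tnf, Tnfsf11 and Tnfrsf11a, and of the likest genes the first 5. Replicates are biological per the series text, and library depth of 34797778 counts or more leaves the spread between them as the main error.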

Additional observations from a re-analysis of the deposited data

Results flagged for a closer look

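Cx3cl1, the gene of a membrane-bound chemokine, was the pathway gene whose change between the gates differed between genotypes by the test of the difference itself. It stood at 571, 548 and 612 CPM in D542G N, against 426, 490.0 and 424 CPM in D542G ML, and at 149, 170.4 and 244 CPM in WT N, against 394, 555 and 641 CPM in WT ML. The gate change in D542G minus that in WT was 1.87 ± 0.32 on the log2 scale (adjusted p = 0.0346, edgeR).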

How the results depend on the processing

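Over the genotypes the calls of Icam1, Tnfaip2 and Birc3 held in all 24 alternatives run. Without the libraries WT N 3 and Y541S N 3, chosen after seeing the data, Nfkbia over the genotypes was -0.00197, and by limma-voom Nfkb1 was 0.034. Without 1 library each, Nfkbia ranged from -0.035 to 0.17, Nfkb1 from -0.13 to 0.084, Relb from -0.090 to 0.011 and Tnfrsf11a from -0.19 to 0.10, so the direction of each depended on the libraries; the cause was not tested.

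Counts of all genes called moved more. limma-voom called 7690 over the genotypes, 5167 for the gates in WT, 5862 in D542G and 2595 in Y541S; DESeq2 called 2142 in WT, 3239 in D542G and 2573 in Y541S. Without the 2 libraries the counts were 3311 in WT and 2849 in D542G. In the N gate D542G against WT gave 277 without the filter, 1780 by DESeq2, 4096 by limma-voom and 1834 without the 2 libraries. Y541S against WT gave 1139, 1931, 134 with the replicate block and 1899 without the 2 libraries, and D542G against Y541S gave 1185 by DESeq2, 1221 by limma-voom and 563 without the 2 libraries. In ML DESeq2 called 112 for D542G and 56 for Y541S against WT, and limma-voom 93 and 3. The difference in gate change from WT gave 428 by DESeq2, 1254 by limma-voom and 404 without the 2 libraries for D542G, and 189, 334 and 794 for Y541S. The causes were not tested.

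Of the 8 genes limma-voom called 6 between the gates in D542G, 2 for D542G against WT and 2 for D542G against Y541S in N, 1 for D542G against WT in ML and 3 for the difference in gate change between D542G and WT, where DESeq2 called 2 and the fit without the 2 libraries 1. For D542G against Y541S in N the count was 0 without the filter (Icam1 adjusted p = 0.0617) and 0 with the replicate block (adjusted p = 0.0686). For Y541S against WT in N it was 1, Tnfaip3, without the 2 libraries. Those held the highest Tnfaip3 level of Y541S N and the lowest of WT N, so that call cannot test the difference. The replicate block gained the call of Nfkbia between the gates in D542G and of Rel over the genotypes, and ended that of Icam1 for D542G against Y541S in N, where the numbers pair nothing; it changed no other call of the 8 genes.

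Leaving out 1 library moved the count of all genes called between 157 and 2965 for the gates in WT, 702 and 2545 in D542G, and 571 and 2045 in Y541S. In the N gate it lay between 92 and 1342 for D542G against WT, 48 and 646 for Y541S against WT, and 56 and 501 for D542G against Y541S, and in ML between 0 and 1 for each mutant. For the difference in gate change it lay between 3 and 149 for D542G and 0 and 60 for Y541S. Of the 8 genes 1 to 2 were called between the gates in WT, 0 to 1 for D542G against Y541S in N, and 0 to 1 for the gate change in D542G against WT. Depth did not limit these results as much as the spread between libraries.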

Other observations

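Il33 and Vcam1 had their highest levels in the N cells of different mutants, but neither was called between the mutants. Il33 stood at 6719, 6326 and 6151 CPM in D542G N, 1166, 509 and 338 CPM in Y541S N, and 129, 212 and 325 CPM in WT N. Vcam1, the adhesion molecule that integrin α4 binds, had 22.6, 24.3 and 18.6 CPM in D542G N, 154, 166 and 78.7 CPM in Y541S N, and 12.3, 17.04 and 14.4 CPM in WT N. D542G N minus Y541S N was 3.25 ± 1.04 on the log2 scale for Il33 (adjusted p = 0.152, edgeR) and -2.61 ± 0.72 for Vcam1 (adjusted p = 0.0902).

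Cxcl1, a neutrophil chemokine gene chosen after its values were seen, had 76.4, 216 and 148 CPM in D542G N, against 38.3, 47.5 and 28.9 CPM in D542G ML (log2 1.94 ± 0.53, adjusted p = 0.0342, edgeR). In WT it had 60.3, 68.2 and 57.1 CPM in N, against 259.8, 355 and 260.0 CPM in ML (log2 -2.24 ± 0.54, adjusted p = 0.0345). The difference between these gate changes was 4.18 ± 0.75 (adjusted p = 0.0513) and was not called.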
